A study of Homo sapiens with 6 samples.

Results

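The HOX cluster genes and their antisense RNAs were read out of a table of gene counts from SUM159 cells. A row was a member when its gene name began with HOXA, HOXB, HOXC or HOXD, or was HOTAIR, HOTTIP or HOTAIRM1. The rule found 33 of the 18398 genes of the table, of which 14 lie in the HOXA cluster, 5 in HOXB, 12 in HOXC and 2 in HOXD. They are 23 protein-coding HOX genes and 10 long non-coding RNAs, and HOTTIP is not analysed here. SUM159 is an established human breast cancer line that lacks hormone receptors and HER2 amplification and has a mesenchymal shape. The control group was 3 libraries of SUM159 cells carrying the empty pLVX lentiviral vector, and the POGK group was 3 libraries of SUM159 cells carrying pLVX-POGK and stably overexpressing POGK. All cells were grown in Ham's F12 medium with serum, insulin and hydrocortisone. POGK derives from a pogo transposable element and carries a KRAB domain, as many zinc-finger repressor proteins do, and the study asked which genes its overexpression alters. The labels do not say whether the stable cells were 1 clone or a pool, or whether replicates were separate cultures, so the p-values reflect the spread among these libraries alone, and that spread may be technical.

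HOX genes encode homeodomain transcription factors that give cells along the body axis their positional identity. In mammals they lie in 4 clusters, and within a cluster the gene order follows the order of expression along the axis, with the low-numbered genes towards the head. Genes with the same number in different clusters are paralogs. HOX proteins bind DNA with TALE-class cofactors of the PBX, MEIS and PKNOX families, polycomb complexes keep the clusters silent, trithorax-type complexes keep them active, and retinoic acid induces the low-numbered genes. Many long non-coding RNAs are made from the opposite strand between the HOX genes, among them HOTAIR, which is studied in breast cancer.

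Total counts ran from 27645789 to 33689230 per library. POGK itself stood at 69.0 ± 7.58 CPM (counts scaled to the same library size) in control cells and 768 ± 22.02 CPM in POGK cells (SD, n = 3 each), as the labels state. The control libraries differed more from each other than the POGK libraries did: a chi-square statistic per gene was 22.5 to 49.7 between control libraries and 1.36 to 2.62 between POGK libraries. The median coefficient of variation of the tested members was 21.4% in control and 12.8% in POGK libraries, beside 13.5% and 4.44% over all genes tested. Of 8 mesenchymal markers all were present, led by VIM at 5960 CPM in control and 3344 CPM in POGK libraries. Their summed level ran from 9561.53 to 11977.16 CPM in control and from 5681.89 to 5741.64 CPM in POGK libraries. By edgeR, 6 of the 8 fell and 2 rose (100% called, beside 66% of all genes tested). The 2 that rose were CDH2, from 145 ± 5.08 to 166.4 ± 3.48 CPM (edgeR adjusted p = 0.0212), and AXL, from 354.2 ± 6.04 to 443.2 ± 5.43 CPM (edgeR adjusted p = 0.00213). Of 8 epithelial markers 7 were in the table and CDH1 is not analysed here, with a summed level of 431.57 to 493.18 CPM in control and 483.85 to 491.07 CPM in POGK libraries. Most of that sum was the keratins KRT8, which fell from 341.8 ± 33.77 to 282.1 ± 4.74 CPM (edgeR adjusted p = 0.0171), and KRT18, which rose from 124.5 ± 18.02 to 204.2 ± 3.58 CPM (edgeR adjusted p = 2.96e-04). KRT19 fell from 1.13 ± 0.480 to 0.328 ± 0.257 CPM (edgeR adjusted p = 0.0183), ESRP1 and CLDN4 did not pass the test, and EPCAM and ESRP2 were below the filter on low counts. EPCAM stood at 0.222 CPM in control and 0.227 CPM in POGK libraries, while ESR1, the estrogen receptor, stood at 0.207 and 0.123 CPM. Of 9 markers of immune, endothelial, liver and red blood cells 3 were in the table, with a summed level of 5.72 to 7.78 CPM in control and 5.79 to 6.51 CPM in POGK libraries. Among these, PTPRC rose from 0.530 ± 0.220 to 1.66 ± 0.303 CPM, CD14 fell from 1.06 ± 0.128 to 0.552 ± 0.282 CPM and PECAM1 fell from 5.18 ± 0.821 to 3.97 ± 0.0920 CPM, and the other 6 are not analysed here. The part of these shifts in the HOX values was not tested, and fewer cells that express a gene and less RNA per cell cannot be told apart in bulk RNA.

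SUM159 cells expressed mainly the HOXC cluster. Annotated protein-coding HOX genes number 11 in HOXA, 10 in HOXB, 9 in HOXC and 9 in HOXD, and the table held 10, 4, 7 and 2 of them. Those not analysed here are HOXA7, HOXB1, HOXB2, HOXB3, HOXB4, HOXB5, HOXB8, HOXC5, HOXC12, HOXD1, HOXD3, HOXD4, HOXD9, HOXD10, HOXD11 and HOXD12. On the scale of CPM per kilobase of exon, which allows genes to be compared, the HOXC coding genes summed to 73.1 ± 8.04 in control libraries, against 9.14 ± 0.630 for HOXA, 1.31 ± 0.197 for HOXD and 1.16 ± 0.119 for HOXB (SD, n = 3 each). HOXC thus held 86.2% ± 1.61 of all coding HOX signal per kilobase in control cells, and the ranges of HOXB and HOXD overlapped. The members were expressed below the typical gene: the median over the 30 tested members was 2.25 CPM, and over all tested genes it was 18.2 CPM.

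**Figure D1:**
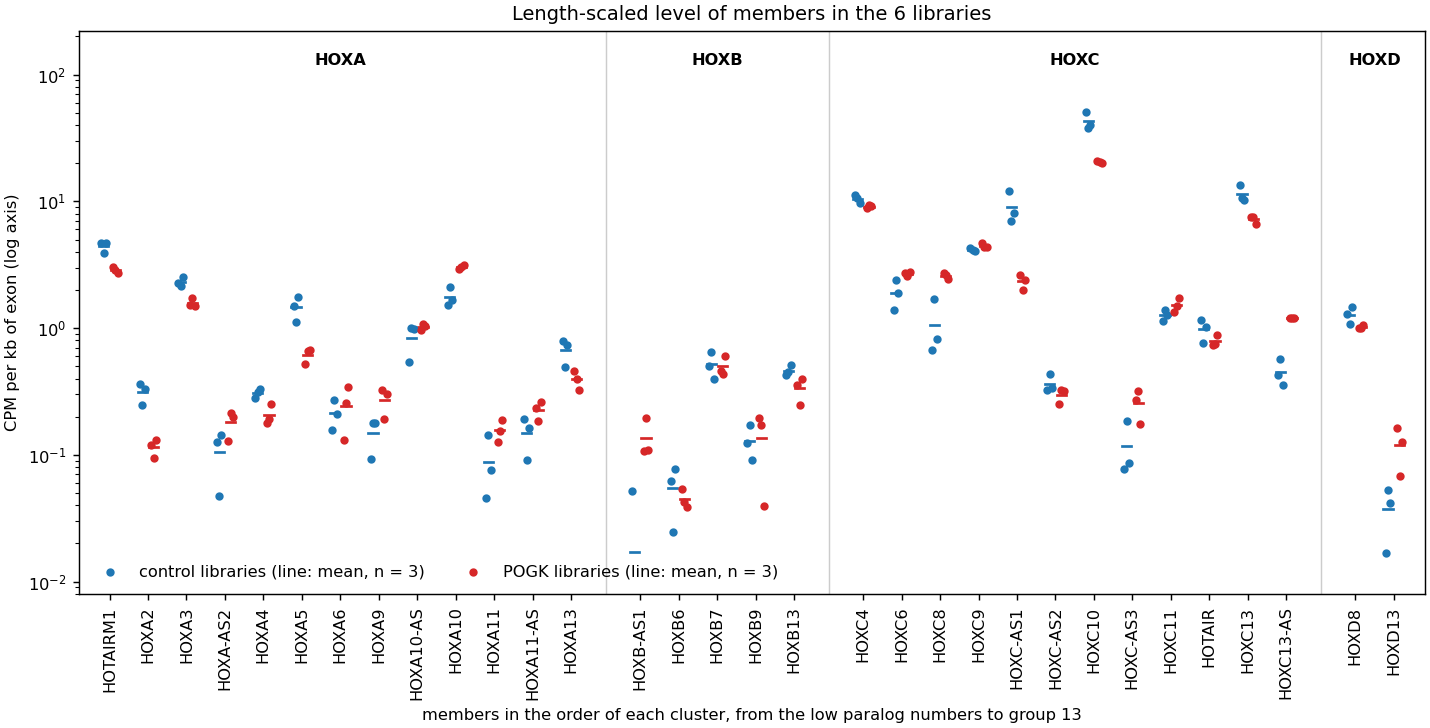
Level of 32 HOX members in every library, in TMM-scaled CPM per kilobase of exon on a log axis, with members ordered along each cluster, 1 point per library and a line at the mean of each group (control and POGK, 3 libraries each). HOXC10 stands highest in both groups and most HOXB and HOXD members lie near the bottom, while HOXB-AS1 had 0 reads in 2 control libraries, which a log axis cannot show.

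The order of the levels per kilobase was set by 4 HOXC members at the top. HOXC10 led in control cells at 42.8 ± 6.58 CPM per kilobase, followed by HOXC13 at 11.4 ± 1.70, HOXC4 at 10.5 ± 0.809 and the antisense RNA HOXC-AS1 at 9.07 ± 2.70. The last 3 did not differ beyond their spread. HOTAIRM1 at 4.45 ± 0.438 and HOXC9 at 4.14 ± 0.114 came next, also within their spread, and HOXA3 at 2.31 ± 0.196 was the highest coding gene outside HOXC. In POGK cells HOXC10 still led at 20.45 ± 0.318, but HOXC4 at 9.07 ± 0.251 stood above HOXC13 at 7.20 ± 0.509. HOXC-AS1 moved from place 4 to place 9 of the 33 members, HOXA10 from place 10 to place 5, HOXC8 from place 14 to place 8 and HOXA2 from place 22 to place 32. At the bottom in control cells stood HOXB-AS1, HOXD13, HOXB6 and HOXA11, all under 0.1 CPM per kilobase.

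POGK cells differed from control cells in 13 of the 30 members that passed edgeR's filter on low counts, 5 higher and 8 lower (edgeR's quasi-likelihood test, Benjamini-Hochberg adjusted p below 0.05 over all genes tested). That is 43.3% of the tested members, beside 66% of the 15889 genes tested, 32.7% higher and 33.3% lower. The groups did not overlap in 19 of the 30, beside 73.7% of all genes. The median log2 fold change of the members was -0.014, and that of all genes was 0.002. The 5 that rose were HOXA10, HOXC6, HOXC8, HOXC-AS3 and HOXC13-AS. The 8 that fell were HOXA2, HOXA3, HOXA5, HOXA13, HOXC10, HOXC13, HOTAIRM1 and HOXC-AS1. Of the coding genes 3 rose and 6 fell among 21 tested, and of the long non-coding RNAs 2 rose and 2 fell among 9. HOXA had 1 higher and 5 lower of 14 tested, HOXC had 4 higher and 3 lower of 12, and none of the 3 tested HOXB members or the 1 tested HOXD member passed, also at an unadjusted p below 0.05. DESeq2, which tested more members, called 1 HOXB member, HOXB-AS1, higher.

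**Figure D2:**
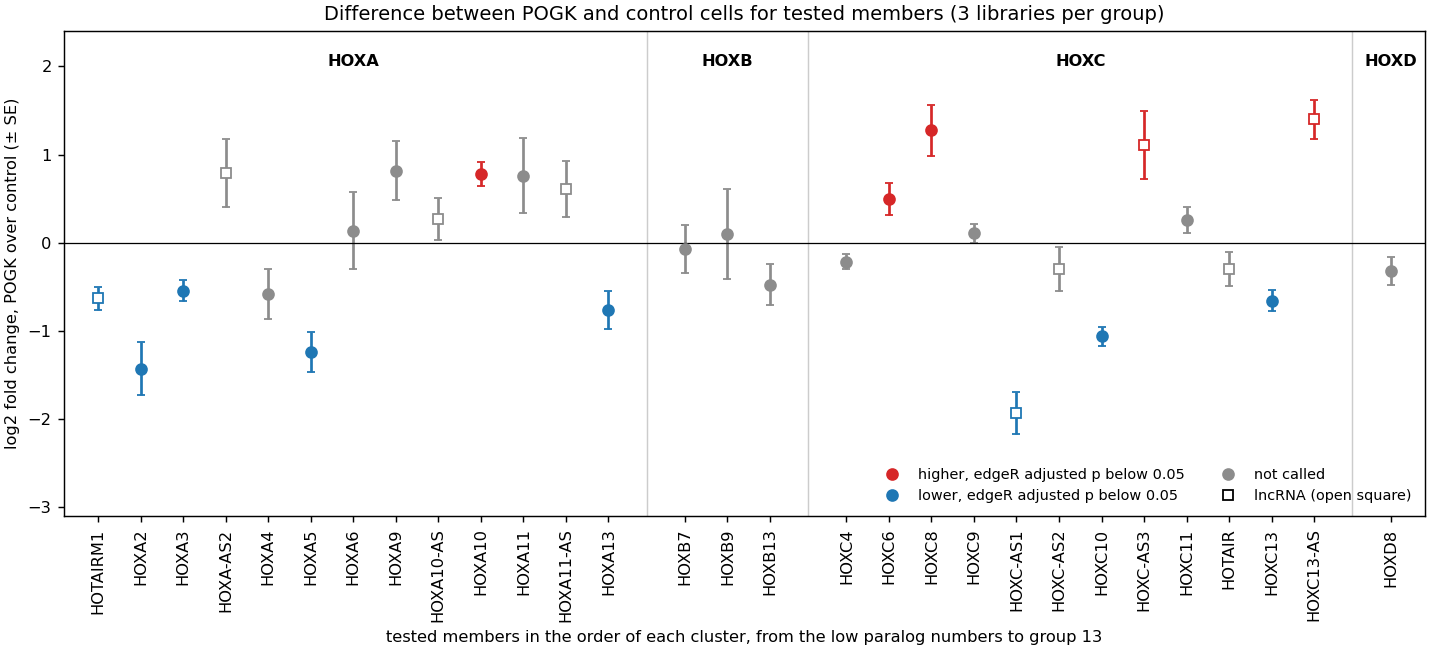
Log2 fold change of POGK over control for 29 of the 30 tested HOX members, ordered along each cluster, with bars of 1 standard error. Red and blue points have an edgeR adjusted p below 0.05 (higher and lower in POGK cells), grey points do not, circles are coding genes and open squares are long non-coding RNAs. The values run from -1.94 for HOXC-AS1 to 1.40 for HOXC13-AS, and HOXC holds members that rose beside members that fell. The sign of HOXB7 turns with scaling to library size alone (0.12) and that of HOXB9 with limma-voom (-0.13).

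In the HOXC cluster (hg38 chromosome 12, 53938831 to 54056030) the most abundant member, HOXC10, fell. HOXC10 encodes a posterior-type HOX factor of the AbdB class and lies at 53985065 to 53990279 on the plus strand. Its counts were 2963, 2823 and 2820 in control replicates 1 to 3 and 1755, 1765 and 1412 in POGK replicates 1 to 3. Scaled, these were 119.3, 90.11 and 95 CPM against 49.06, 48.79 and 47.64 CPM, so every control library stood above every POGK library and the first control library stood apart at the top. HOXC10 fell 2.09-fold (log2 fold change -1.06, SE 0.10, edgeR adjusted p = 4.2e-05). Its share of all coding HOX signal per kilobase was 53.6, 47.6 and 49.8% in control replicates 1 to 3 and 35, 35 and 34.5% in POGK replicates 1 to 3. HOXC13, at the 5′ end of the cluster (53938831 to 53946544) and known for its role in hair and nail formation, fell 1.58-fold, from 26.85 ± 4.02 to 16.97 ± 1.20 CPM (log2 fold change -0.66, SE 0.12, edgeR adjusted p = 0.00122), with no overlap between the groups.

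HOXC8 and HOXC6 moved the other way. HOXC8, a trunk-level HOX gene at 54008985 to 54012769, had counts of 40, 128 and 59 in control replicates 1 to 3 and 236, 228 and 176 in POGK replicates 1 to 3. The groups did not overlap, but the second control library stood more than 2 times as high as the other control libraries in CPM (4.09 against 1.61 and 1.99). HOXC8 rose 2.42-fold (log2 fold change 1.27, SE 0.29, edgeR adjusted p = 0.00382). HOXC6, whose annotated span (53990624 to 54030823) covers HOXC9 and HOXC8 and overlaps HOXC4, rose 1.41-fold, from 6.55 ± 1.75 to 9.29 ± 0.360 CPM (log2 fold change 0.49, SE 0.18, edgeR adjusted p = 0.0353). The HOXC6 call was lost when the first or the third control library or any single POGK library was left out, with log2 fold changes between 0.33 and 0.53 there. HOXC6 shares 16.1% of its exon bases with other genes on the same strand, HOXC4 and HOXC9 among them, and the counting may have left out or split reads there.

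The other coding HOXC genes did not pass the test. HOXC4 stood at 29.12 ± 2.24 CPM in control and 25.11 ± 0.694 CPM in POGK libraries (log2 fold change -0.21, SE 0.09, edgeR adjusted p = 0.055). Its groups did not overlap, and the call was gained when the third control library was left out (-0.28) or with a filter of 1 CPM (-0.23). HOXC9 stood at 6.89 ± 0.190 and 7.41 ± 0.311 CPM (log2 fold change 0.11, SE 0.11, edgeR adjusted p = 0.411). HOXC11 stood at 4.14 ± 0.380 and 4.97 ± 0.607 CPM (log2 fold change 0.26, SE 0.15, edgeR adjusted p = 0.149). Of these, HOXC9 and HOXC11 were called higher only when libraries were scaled to their size alone, at 0.30 and 0.45, a scaling that moved the median of all genes from 0.002 to 0.194.

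Of the 5 long non-coding RNAs of HOXC, 2 rose and 1 fell. HOXC-AS1 lies on the minus strand at 53999022 to 54000010, inside the span of HOXC9 and without exon overlap with it. Its counts were 178, 129 and 143 in control replicates 1 to 3 and 56, 43 and 42 in POGK replicates 1 to 3, with no overlap between the groups in CPM either. HOXC-AS1 fell 3.83-fold, from 5.37 ± 1.60 to 1.39 ± 0.190 CPM (log2 fold change -1.94, SE 0.24, edgeR adjusted p = 1.37e-04), the largest fall among the 30 tested members. HOXC13-AS, which overlaps the start of HOXC13 on the minus strand (53935328 to 53939643), had counts of 15, 25 and 15 against 61, 61 and 50, so that every POGK library stood above every control library. HOXC13-AS rose 2.64-fold, from 0.636 ± 0.149 to 1.69 ± 0.0107 CPM (log2 fold change 1.40, SE 0.22, edgeR adjusted p = 5.56e-04), the largest rise among the 30 tested members.

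HOXC-AS3, which overlaps the start of HOXC10 on the minus strand, had counts of 6, 18 and 8 against 30, 36 and 16. The groups overlapped in CPM, since the second control library (0.575) lay above the third POGK library (0.540). HOXC-AS3 rose 2.15-fold (log2 fold change 1.10, SE 0.39, edgeR adjusted p = 0.0306), and the call was lost without the first or the third control library or without the first or the second POGK library, at 0.91 to 1.07. HOTAIR, which recruits chromatin-modifying complexes and has been linked to breast cancer metastasis, had counts of 89, 74 and 94 against 82, 84 and 82. HOTAIR stood at 3.04 ± 0.620 and 2.46 ± 0.266 CPM with overlapping groups and did not pass the test (log2 fold change -0.30, SE 0.19, edgeR adjusted p = 0.192), except when the second control library was left out (-0.46). HOXC-AS2 stood at 0.808 ± 0.130 and 0.662 ± 0.0894 CPM (log2 fold change -0.30, SE 0.25, edgeR adjusted p = 0.31).

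Summed over its 12 members, HOXC stood at 211.4, 177.2 and 174.8 CPM in control replicates 1 to 3 and at 126.3, 126.3 and 123.9 CPM in POGK replicates 1 to 3. The groups did not overlap, and the log2 ratio of the means was -0.58, of which HOXC10 made the largest part in CPM. The share of HOXC in all coding HOX signal per kilobase was 86.2% ± 1.61 in control and 81.8% ± 0.704 in POGK libraries, again without overlap, and that of HOXA was 10.9% ± 1.29 and 14.6% ± 0.483. The HOXA sum over 14 members overlapped between the groups at 38.47 ± 2.65 and 35.87 ± 0.271 CPM, and its log2 ratio turned from -0.10 to 0.10 with scaling to library size alone. Summed per kilobase, the 14 members stood at 14.68 ± 1.09 and 12.84 ± 0.153 without overlap, while the HOXA coding genes alone overlapped on that scale too.

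In the HOXA cluster (hg38 chromosome 7) HOXA2, HOXA3, HOXA5 and the last gene, HOXA13, fell, and HOXA10 rose. The promoter sequences below are shown for 3 of these genes, because 1 rose and 2 fell within the same cluster. Each is the 250 bases before a start site in RefSeq (build GRCh38.p14), on the minus strand and read 5′ to 3′. Capitals mark matches, on either strand, to TATAAA (the TATA box), CCAAT (the CCAAT box), GGGCGG (a binding site of Sp factors) and TGATTGAT (a composite site of HOX and PBX proteins). The windows are chr7:27102684-27102933 for HOXA2, chr7:27174321-27174570 for 1 of the HOXA10 start sites and chr7:27200092-27200341 for HOXA13.
HOXA2: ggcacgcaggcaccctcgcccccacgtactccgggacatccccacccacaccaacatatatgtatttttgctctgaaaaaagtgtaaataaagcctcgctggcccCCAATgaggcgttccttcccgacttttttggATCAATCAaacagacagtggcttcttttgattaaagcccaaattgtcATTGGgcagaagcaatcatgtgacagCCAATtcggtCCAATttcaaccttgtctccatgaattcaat
HOXA10: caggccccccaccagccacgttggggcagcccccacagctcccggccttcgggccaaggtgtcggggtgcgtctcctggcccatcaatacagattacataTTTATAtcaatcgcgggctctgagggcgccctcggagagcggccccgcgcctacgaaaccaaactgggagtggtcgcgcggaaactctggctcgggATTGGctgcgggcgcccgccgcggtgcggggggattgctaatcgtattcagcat
HOXA13: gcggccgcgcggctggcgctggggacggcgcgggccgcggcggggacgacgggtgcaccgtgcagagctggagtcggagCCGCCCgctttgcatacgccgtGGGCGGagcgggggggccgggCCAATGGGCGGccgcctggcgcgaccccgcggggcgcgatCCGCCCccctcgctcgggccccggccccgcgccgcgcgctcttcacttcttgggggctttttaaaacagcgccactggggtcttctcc
The HOXA2 window held 4 CCAAT and 1 TGATTGAT match, with a GC content of 47.2% and 8 CpG dinucleotides. The HOXA10 window held 1 TATAAA and 1 CCAAT match, with a GC content of 65.2% and 24 CpG dinucleotides. The HOXA13 window held 4 GGGCGG matches and 1 CCAAT match directly beside one of them, with a GC content of 78.0% and 40 CpG dinucleotides. Over all 35116 windows of the table, TATAAA was in 10.7%, CCAAT in 32%, GGGCGG in 42.6% and TGATTGAT in 0.416%. The table held 21 windows of 14 members, of which 23.8%, 47.6%, 38.1% and 4.76% had these motifs. Windows of 1 gene can overlap in sequence, and HOXA3 alone had 7 of the 21. TGATTTAT, another composite site of HOX and PBX proteins, was in none of the member windows and in 0.752% of all.

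HOXA10, a posterior gene needed for uterine development and active in blood progenitors (27170605 to 27180261), had counts of 140, 245 and 184 in control replicates 1 to 3 and 391, 405 and 348 in POGK replicates 1 to 3. All POGK libraries stood above all control libraries, at 10.93 to 11.74 CPM against 5.64 to 7.82 CPM. HOXA10 rose 1.72-fold (log2 fold change 0.78, SE 0.14, edgeR adjusted p = 9.76e-04). It shares 16.4% of its exon bases with HOXA10-AS on the other strand and 9.9% with a gene without a symbol on its own strand.

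HOXA2, which patterns the hindbrain and the second branchial arch, had counts of 21, 18 and 23 in control replicates 1 to 3 and 10, 8 and 9 in POGK replicates 1 to 3. The groups did not overlap, at 0.732 ± 0.141 and 0.268 ± 0.0424 CPM, and HOXA2 fell 2.70-fold (log2 fold change -1.43, SE 0.30, edgeR adjusted p = 0.0026). HOXA5, which has been described as a tumor suppressor in breast cells, had counts of 64, 60 and 90 against 32, 41 and 34. HOXA5 fell 2.37-fold, from 2.51 ± 0.562 to 1.06 ± 0.142 CPM (log2 fold change -1.24, SE 0.23, edgeR adjusted p = 0.0012), and neither HOXA2 nor HOXA5 shares exon bases with an annotated gene. HOXA3, needed for thymus and parathyroid formation, fell 1.46-fold, from 9.97 ± 0.845 to 6.82 ± 0.536 CPM (log2 fold change -0.55, SE 0.12, edgeR adjusted p = 0.00318). HOXA13, which patterns the limb ends and the hindgut, had counts of 100, 79 and 110 against 83, 73 and 49. HOXA13 fell 1.69-fold (log2 fold change -0.76, SE 0.22, edgeR adjusted p = 0.0127), with no overlap in CPM, and the call was lost without the third control library (-0.69) or the third POGK library (-0.64).

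The remaining coding HOXA genes described here did not pass the test. HOXA9, a leukemia-associated HOX gene, had counts of 7, 17 and 16 against 35, 21 and 27 without overlap in CPM (log2 fold change 0.82, SE 0.33, edgeR adjusted p = 0.0534). HOXA9 was called higher with scaling to library size alone (1.01) and without the second POGK library (1.03). HOXA11 (0.76, SE 0.42, edgeR adjusted p = 0.138), HOXA4 (-0.58, SE 0.29, edgeR adjusted p = 0.0981) and HOXA6 (0.14, SE 0.43, edgeR adjusted p = 0.793) had fewer than 20 counts in every library, so that only large changes could be seen. HOXA11 was called higher without the second control library, at 1.31.

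Of the 4 HOXA long non-coding RNAs only HOTAIRM1 passed. HOTAIRM1 is a myeloid-associated RNA on the plus strand (27095647 to 27100265), and it had counts of 174, 185 and 210 against 162, 155 and 121. In CPM the control libraries lay between 5.91 and 7.07 and the POGK libraries between 4.08 and 4.53. HOTAIRM1 fell 1.55-fold (log2 fold change -0.63, SE 0.13, edgeR adjusted p = 0.00239). It shares 43.2% of its exon bases with other annotated genes on the same strand, and the counting may have left out or split reads there. HOXA-AS2 (0.79, SE 0.39, edgeR adjusted p = 0.0972), HOXA11-AS (0.61, SE 0.32, edgeR adjusted p = 0.118) and HOXA10-AS (0.27, SE 0.24, edgeR adjusted p = 0.349) had positive log2 fold changes and overlapping groups. HOXA11-AS was called higher with scaling to library size alone, at 0.81. HOXA10-AS shares 62.3% of its exon bases with genes on the other strand.

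Few reads fell on HOXB and HOXD. The 5 HOXB members summed to 2.69 ± 0.155 CPM in control and 2.45 ± 0.171 CPM in POGK libraries, and the 2 HOXD members to 3.44 ± 0.520 and 2.97 ± 0.161 CPM. The groups overlapped in both clusters, and the sign of the HOXB ratio turned with scaling to library size alone. Without HOXB-AS1, the HOXB coding genes summed to 2.667 ± 0.180 CPM in control and 2.241 ± 0.2465 CPM in POGK libraries, without overlap. Per kilobase these groups all but met, at 1.078 in control replicate 3 and 1.077 in POGK replicate 3. HOXB7 stood at 0.787 ± 0.193 and 0.758 ± 0.134 CPM (log2 fold change -0.071, SE 0.27, edgeR adjusted p = 0.829), and its sign turned to 0.12 with scaling to library size alone. HOXB9 stood at 0.335 ± 0.106 and 0.349 ± 0.217 CPM (0.10, SE 0.51, edgeR adjusted p = 0.878), and POGK replicate 3 held only 3 reads. HOXB13, a prostate-associated gene, stood at 1.40 ± 0.134 and 1.02 ± 0.242 CPM without overlap (-0.48, SE 0.23, edgeR adjusted p = 0.0977). HOXD8 stood at 3.36 ± 0.533 and 2.69 ± 0.100 CPM without overlap (-0.32, SE 0.16, edgeR adjusted p = 0.111), and was called lower when the second control library was left out (-0.44).

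The 3 members below the filter were HOXB6, HOXB-AS1 and HOXD13. HOXB6 had counts of 4, 2 and 6 against 5, 4 and 3. HOXB-AS1, an RNA antisense to HOXB2 and HOXB3, had 2, 0 and 0 reads in control replicates 1 to 3 and 6, 11 and 5 in POGK replicates 1 to 3, a ratio of 9.30 after scaling with an exact 95% interval of 2.29 to 81.6 that covers counting error only. HOXD13, a limb-patterning gene, had 1, 4 and 3 reads against 14, 6 and 9, a ratio of 3.06 with an interval of 1.37 to 7.76. Both sets of libraries were without overlap in CPM. With no filter, edgeR's adjusted p was 0.0161 for HOXB-AS1 and 0.0347 for HOXD13, and DESeq2's was 0.032 and 0.0832. In the authors' deposited table both had an adjusted p below 0.05, at 0.00704 and 0.0187. That table called 8 members higher and 8 lower of 33, beside 59% of all its genes.

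The balance between antisense RNAs and the HOX genes beside them was described for 8 pairs. The antisense RNA's share of the counts of both was computed in each library, which does not depend on scaling between libraries. In 6 of the 8 pairs the groups did not overlap in this share. For single genes in CPM, the groups did not overlap in 73.7% of all genes tested, so such a count is not particular to these pairs. Each of the 6 had the smallest p that a two-sided exact permutation test of 3 against 3 libraries can give (p = 0.1, 0.133 after Benjamini-Hochberg adjustment over the 8 pairs), so none could pass. The HOXC13-AS share of the pair with HOXC13 was 1.88, 3.11 and 2.04% in control replicates 1 to 3 and 8.79, 8.73 and 9.77% in POGK replicates 1 to 3. The HOXC-AS3 share of the pair with HOXC10 was 0.373% ± 0.229 and 1.60% ± 0.445, and the HOXA-AS2 share of the pair with HOXA3 was 5.30% ± 2.27 and 12.5% ± 2.48. These 3 shares were higher in POGK cells.

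The other 3 shares without overlap were lower in POGK cells. The HOXC-AS1 share of the pair with HOXC9 was 50.3, 37.4 and 41.8% against 16.8, 14.1 and 16.3%. The HOTAIR share of the pair with HOXC11 was 42.1% ± 7.29 and 33.1% ± 1.13, and the HOXC-AS2 share of the pair with HOXC9 was 10.5% ± 1.53 and 8.22% ± 1.31. In both of these pairs the groups all but met. HOTAIR had 34.4% in control replicate 2 and 34.3% in POGK replicate 1. HOXC-AS2 had 9.28% in control replicate 1 and 9.06% in POGK replicate 2. The groups overlapped for HOXA10-AS with HOXA10 (17.3% ± 3.56 and 13.1% ± 0.517, exact permutation p = 0.2) and for HOXA11-AS with HOXA11 (65.9% ± 20.8 and 62.8% ± 5.15, exact permutation p = 0.9). Whether the counting used the strand is not given in the sources used here, so where exons overlap, reads from a gene and from its antisense partner cannot be told apart. Overlap with exons of genes on the opposite strand took 62.3% of the exon bases of HOXA10-AS, 27.7% of HOXA11-AS, 13.1% of HOXA-AS2 and 12.2% of HOXC13-AS. It took 7.4% of HOXC-AS2, 5.3% of HOTAIR (none of it with HOXC11), 2.0% of HOXC-AS3 and 0% of HOXC-AS1.

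**Figure D3:**
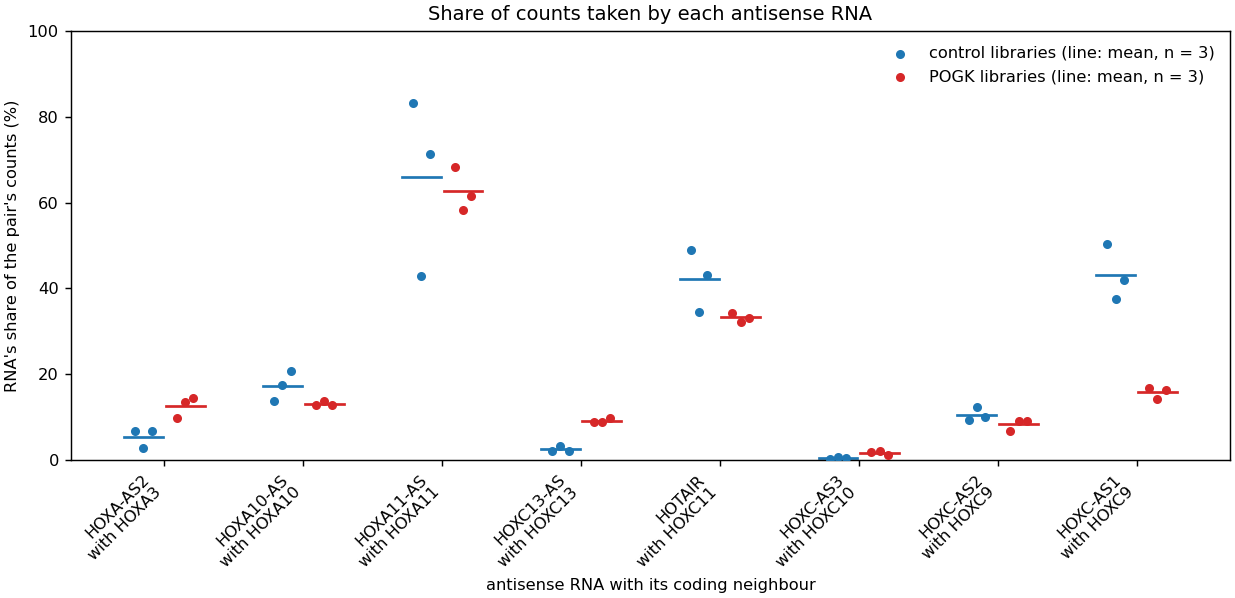
Share of the antisense RNA in the summed counts of each antisense and HOX gene pair, in percent on a linear axis, with 1 point per library and a line at the mean of each group (control and POGK, 3 libraries each). The HOXC13-AS, HOXC-AS3 and HOXA-AS2 shares are higher in every POGK library, and the HOXC-AS1 share is lower in every POGK library.

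Paralogs with the same number did not always move together. HOXA10 rose and HOXC10 fell, so the HOXA10 share of the pair, per kilobase, was 2.93, 5.26 and 4.01% in control replicates 1 to 3 and 12.5, 12.8 and 13.6% in POGK replicates 1 to 3 (exact permutation p = 0.1, the smallest possible, and 0.3 after Benjamini-Hochberg adjustment over 6 HOXA and HOXC pairs). Both genes of number 13 that were tested in these clusters, HOXA13 and HOXC13, fell, and the HOXA13 share was 5.58% ± 1.07 and 5.16% ± 0.532 with overlapping groups (exact permutation p = 0.7). HOXA9 had 3.50% ± 1.18 and 5.72% ± 1.29 of its pair with HOXC9 (exact permutation p = 0.1, the smallest possible, and 0.3 after adjustment). The groups all but met there, since control replicate 3 and POGK replicate 2 both stood at 4.23%. The groups overlapped in the pairs of number 4, 6 and 11. Across all clusters, the coding genes numbered 4 to 8 had 2 higher and 1 lower of 8 tested (37.5% called). Those numbered 9 to 13 had 1 higher and 3 lower of 10 (40% called). Both of these shares lay below the 66% of all genes tested, of which 32.7% were higher and 33.3% lower. Among the genes numbered 1 to 3, HOXA2 and HOXA3 fell, and the share of that group is not reported here. These paralog groups hold too few genes to order.

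The nearest protein-coding genes of the table outside each cluster showed no shared direction. Beside HOXA, SKAP2 (log2 fold change -0.26) and HIBADH (-0.38) fell. Beside HOXC, CALCOCO1 fell 3.79-fold, from 121.7 ± 28.2 to 32.1 ± 1.48 CPM (log2 fold change -1.92, SE 0.16, edgeR adjusted p = 2.03e-05), while SMUG1 on the other side did not pass (0.084, edgeR adjusted p = 0.439). Beside HOXB, SNX11 rose (0.41) and TTLL6 was below the filter, and beside HOXD, LNPK fell (-0.52) and MTX2 rose (0.47). The calls for SKAP2 and SNX11 were lost when single libraries were left out, and SKAP2 also with scaling to library size alone.

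Of the TALE cofactors with which HOX proteins bind DNA, 8 of 9 were in the table, and 2 rose and 4 fell (75% called, beside 66% of all genes tested, median log2 fold change -0.43). MEIS1 was at 29.02, 21.9 and 34.66 CPM in control replicates 1 to 3 and 13, 11.91 and 12.95 CPM in POGK replicates 1 to 3. The groups did not overlap and MEIS1 fell 2.26-fold (log2 fold change -1.18, SE 0.16, edgeR adjusted p = 2.15e-04). PBX3 (-0.84), PBX2 (-0.55) and MEIS3 (-0.46) fell too, MEIS3 losing its call with scaling to library size alone. MEIS2 rose 1.49-fold, from 12.09 ± 1.86 to 18.05 ± 1.04 CPM (log2 fold change 0.57, SE 0.12, edgeR adjusted p = 0.00319), and PKNOX1 rose (0.29, edgeR adjusted p = 0.00982). Without the third POGK library the PKNOX1 fold change was the same (0.29) and its adjusted p was 0.0506. PBX4 (-0.39, edgeR adjusted p = 0.122) did not pass.

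The known regulators of the clusters changed in both directions. Of the trithorax and KMT2 methyltransferase genes, which include the enzymes that write the active H3K4 methyl mark, 9 rose and 6 fell of 18 tested (83.3% called, beside 66% of all genes tested, median 0.19). The smallest adjusted p were those of ASH1L (-0.79), KMT2A (-0.71), the founding member of the family that maintains HOX expression, and AFF1 (-0.91), a fusion partner of KMT2A in leukemia. KMT2A was at 129.9, 116 and 117.3 CPM in control replicates 1 to 3 and 76.67, 73.19 and 71.69 CPM in POGK replicates 1 to 3, without overlap (edgeR adjusted p = 4.58e-05).

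Of the polycomb and H3K27 genes 12 rose and 16 fell of 30 tested (93.3% called, beside the same 66%, median -0.21). The smallest adjusted p were those of EZH1, a methyltransferase of polycomb complex PRC2 (-1.30), KDM6B, a demethylase that removes its mark (-1.25), and PHC2, a PRC1 subunit (-0.86). EZH1 fell 2.46-fold, from 99.35 ± 13.6 to 40.38 ± 1.74 CPM (edgeR adjusted p = 1.61e-05). Other PRC2 core subunits, chosen after their values were seen, rose: SUZ12 by 1.18 on the log2 scale, EED by 0.87 and EZH2 by 0.57. Of the retinoic acid genes 4 rose and 9 fell of 13 tested (100% called, beside the same 66%, median -0.65). The leading genes were ALDH1A3, an enzyme that makes retinoic acid, DHRS3, a retinaldehyde reductase, and the receptor RARA. ALDH1A3 rose 5.13-fold, from 4.22 ± 0.998 to 21.83 ± 0.0889 CPM (edgeR adjusted p = 8.07e-06). DHRS3 fell 5.37-fold, from 23.07 ± 6.17 to 4.30 ± 0.652 CPM (edgeR adjusted p = 1.93e-05), and RARA fell 2.62-fold (edgeR adjusted p = 2.64e-05).

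**Figure D4:**
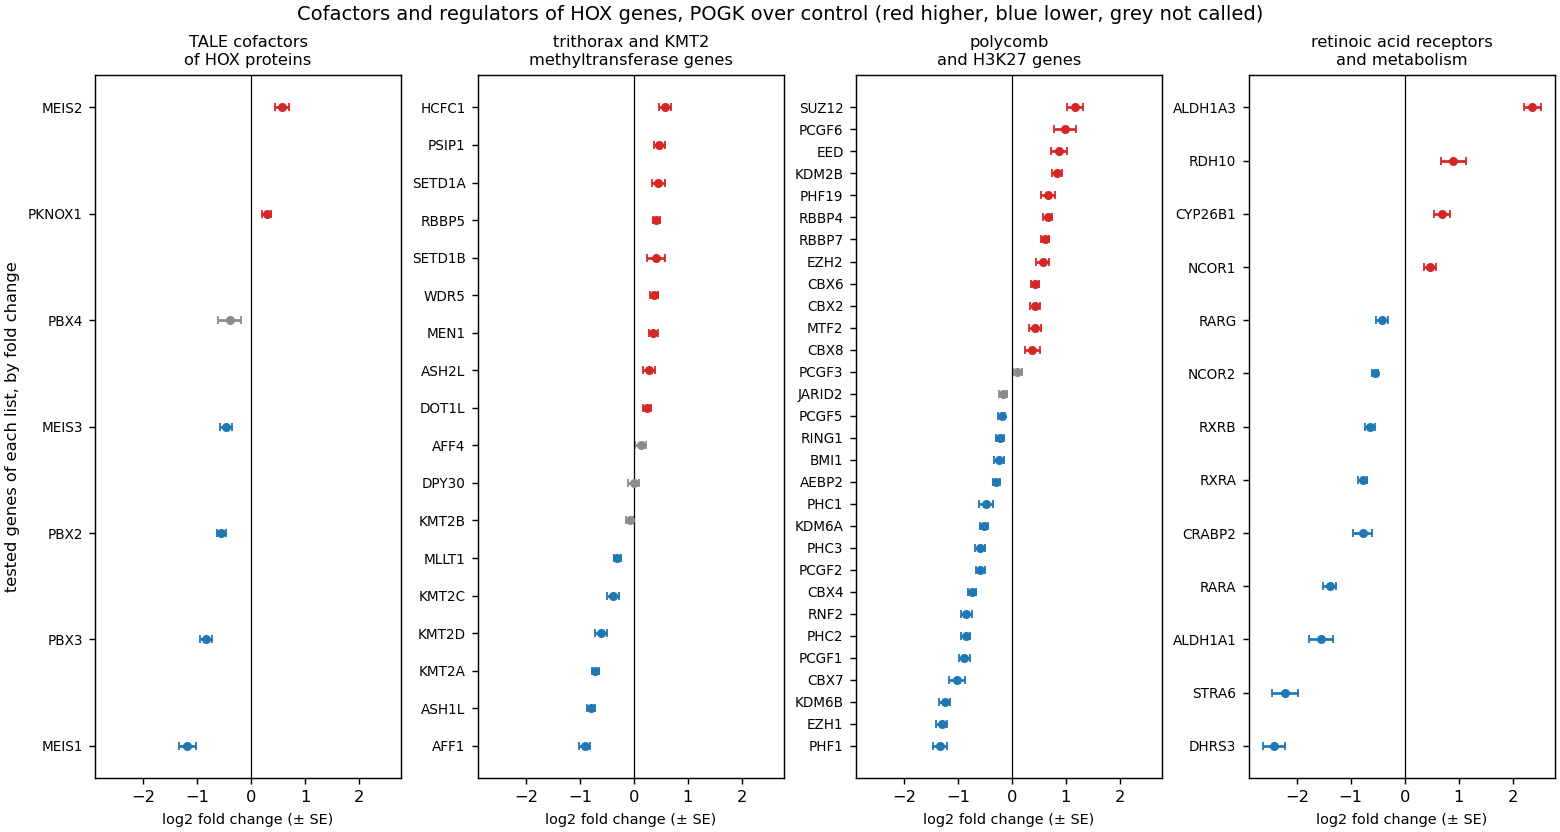
Log2 fold change of POGK over control for tested genes of the TALE cofactor, trithorax and KMT2, polycomb and retinoic acid lists, 1 point per gene with a bar of 1 standard error, red or blue where edgeR's adjusted p was below 0.05 (higher or lower in POGK cells) and grey otherwise. Each list holds genes on both sides of 0, from -2.43 for DHRS3 to 2.36 for ALDH1A3.

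Of 14 further genes of the clusters that carry no HOX name, HAGLR, an antisense RNA of the HOXD cluster, was analysed here. HAGLR was below the filter, with 7, 8 and 3 reads in control cells and 2, 1 and 2 reads in POGK cells. Of 6 ParaHox and CDX genes, which descend from the same ancestral cluster, PDX1 was analysed here and was below the filter, with 0, 1 and 0 reads in control replicates 1 to 3 and 17, 12 and 5 in POGK replicates 1 to 3.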

How the data were processed

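RNA was sequenced from 6 libraries of SUM159 cells in 2 groups of 3, after depletion of ribosomal RNA per the labels' protocols, with reads aligned to hg38. Trimmomatic, STAR, SAMtools, deepTools and featureCounts are named in the submitters' processing notes. For versions, annotation and strand setting, nothing is stated there. The authors deposited raw counts per Ensembl gene. Per the file headers and values, the deposited table also holds a normalized signal per library (the count divided by 1 size factor) and its mean, a log2 fold change and its error, a score from the test, and p-values before and after adjustment. The tool behind these is not stated, and each use of them names the authors' deposited table. The lowest row total was 21 counts, and rarer genes are not analysed here.

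Counts were tested with edgeR 4.0.16 (quasi-likelihood, robust, TMM scaling, default filter on low counts) in R 4.3.3 over 15889 genes, with Benjamini-Hochberg adjustment and a threshold of 0.05. A group design without block was used, standard errors were derived from the F statistic, and the script was tested on simulated data. CPM used TMM-scaled library sizes. All 33 members matched GENCODE release 44, which gave positions and exon lengths. Promoter windows came from RefSeq (GRCh38.p14). Of the members, 14 had windows. Those without include HOTAIR, HOTAIRM1, HOXA5, HOXA10-AS, HOXB6, HOXB7, HOXB9, HOXB13, HOXC6, HOXC8, HOXC9, HOXC10, HOXC11, HOXC13, HOXC-AS1, HOXC-AS2, HOXC-AS3 and HOXC13-AS. Motifs were searched on both strands.

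Members and TALE cofactors are named with their values, except for 1 tested gene of each, which is not reported here and stays in the counts. Of each other list, the 3 genes with the smallest adjusted p are named, with the nearest coding gene of the table on each side of a cluster. The members and lists were chosen with earlier results of these data known. Alternatives were DESeq2 1.42.0, limma-voom (limma 3.58.1), other scalings and filters, a block for the replicate number, and leaving out each library in turn.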

Additional observations from a re-analysis of the deposited data

How the results depend on the processing

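Of the 13 called members, 10 kept their call under every one of the 13 alternatives that tested them, HOXA13, HOXC6 and HOXC-AS3 lost it when single libraries were left out, and none reversed. Of the members not called, 8 gained a call under 1 or more alternatives. The number of members higher was 9 with scaling to library size alone, with 3 in HOXA, and 7 with no filter. HOXB had 1 higher with DESeq2 or no filter, HOXD had 1 higher with no filter, and the long non-coding RNAs had 1 higher with a filter of 1 CPM in 3 libraries, which tests fewer genes. Library size alone moved the log2 ratio of summed CPM, on the mean over libraries, to 0.096 for HOXA, 0.059 for HOXB and -0.38 for HOXC, and the log2 fold change of HOXB7 to 0.12. HOXB9 was -0.13 with limma-voom. The cause of these changes was not tested.

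With 1 library left out in turn, 3 to 7 members were higher and 7 to 10 lower. In HOXA 1 to 2, in HOXC 2 to 4, in HOXD 0 to 1, among the long non-coding RNAs 1 to 2 and among the TALE cofactors 1 to 2 were higher, and in HOXD 0 to 1 were lower. Among single members that turned sign, the log2 fold change ran from -0.145 to 0.453 for HOXA6, from -0.238 to 0.143 for HOXB7 and from -0.239 to 0.491 for HOXB9.

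The replicate numbers did not pair the libraries: deviations of same-numbered libraries correlated at 0.087, 0.041 and 0.003. With the replicate number as a block, 5 members were higher and 8 lower, as without it. Members with few reads, under about 20 per library, could show only large changes.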
